A study of Mus musculus with 12 samples.

Results

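Genes that mark B lymphocytes were followed in the colon of mice with and without experimental colitis. They were Cd22, Cd79a, Cd79b, Ms4a1, Pax5, Cr2, Fcer2a, Blk and Tnfrsf13c, taken as the rows of the gene table that carry these symbols. All 9 symbols were found, once each, among 54532 genes, and all 9 were among the 24102 genes that passed the filter on low values. Colon RNA was sequenced in 12 libraries, 3 in each of 4 groups. Untreated Tmem173fl/fl mice carried a floxed Tmem173 gene, which encodes the DNA-sensing adaptor STING, and no Cre. Untreated Tmem173iΔmye mice carried the same floxed gene and the tamoxifen-inducible Lyz2-Creert2, a Cre recombinase under the control of a gene active in macrophages, monocytes and neutrophils. Colitic Tmem173fl/fl and colitic Tmem173iΔmye mice were of the same genotypes and received dextran sodium sulfate (DSS), a chemical that injures the colon epithelium, for 7 days in the drinking water, while untreated mice received water. All 4 groups had 5 tamoxifen injections, and the methods give an age of 6 to 8 weeks on the C57BL/6N background. The deletion was thus aimed at myeloid cells and not at B cells.

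B cells recognise antigen through a receptor made of surface immunoglobulin and the signalling chains encoded by Cd79a and Cd79b. Their identity is held by the transcription factor encoded by Pax5, and their survival depends on the cytokine BAFF, which binds the receptor encoded by Tnfrsf13c. In the colon, naive B cells lie mostly in lymphoid patches and isolated lymphoid follicles in the wall, while the lamina propria around them holds plasma cells, which secrete immunoglobulin and have lost most of these genes. In whole tissue, fewer B cells and less RNA per B cell cannot be told apart.

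Promoters are shown for 3 of these genes, from RefSeq on GRCm38.p6, each running from 250 bases before to 50 bases after the annotated start. Cd79a had the highest level per gene length, Cd22 held the match to the Ebf1 core, and Cr2 was the gene that passed the test. The table of promoters had entries for 6 of the 9 genes, Cd79b, Ms4a1 and Blk being without one. Capitals mark motifs searched on both strands: the octamer ATTTGCAT bound by Oct factors, the core CCCNNGGG bound by Ebf1, the Ets core AGGAAG and the E-box CAGGTG of the kind bound by E2A. The motifs were chosen after the sequences had been seen. A match is a stretch of letters and was not tested as a binding site.
Cd79a, chr7:24897247-24897546, plus strand: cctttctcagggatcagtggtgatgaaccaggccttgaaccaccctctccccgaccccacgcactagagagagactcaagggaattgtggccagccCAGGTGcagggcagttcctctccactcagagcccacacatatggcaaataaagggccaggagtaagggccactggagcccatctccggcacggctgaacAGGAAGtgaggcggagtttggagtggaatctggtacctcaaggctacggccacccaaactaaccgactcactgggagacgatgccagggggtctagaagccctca
Cd22, chr7:30878979-30879278, minus strand: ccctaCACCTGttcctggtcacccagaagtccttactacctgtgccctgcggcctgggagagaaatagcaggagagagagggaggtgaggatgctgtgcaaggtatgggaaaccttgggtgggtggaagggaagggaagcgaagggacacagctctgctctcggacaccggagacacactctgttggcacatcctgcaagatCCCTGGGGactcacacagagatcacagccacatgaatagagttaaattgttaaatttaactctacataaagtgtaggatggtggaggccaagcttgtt
Cr2, chr1:195176670-195176969, minus strand: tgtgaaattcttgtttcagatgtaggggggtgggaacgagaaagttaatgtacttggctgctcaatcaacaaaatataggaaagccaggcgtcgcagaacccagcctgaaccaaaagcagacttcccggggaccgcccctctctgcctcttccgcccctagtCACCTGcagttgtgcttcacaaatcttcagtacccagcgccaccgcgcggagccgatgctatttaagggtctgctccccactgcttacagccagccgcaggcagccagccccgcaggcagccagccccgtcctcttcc

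The E-box was found for 5 of the 6 genes with an entry, Pax5 being the one without. These 6 genes had 8 promoters, since Fcer2a had several annotated starts. Of the 8 promoters, 5 held the E-box, against 20.2% of the 32851 promoters of the whole table. Its first base was 154 bases before the start in Cd79a, 245 bases before it in Cd22 and 88 bases before it in Cr2. The Ets core was found in Cd79a, 55 bases before the start, and in Fcer2a. It was in 3 of the 8 promoters and in 35.4% of all promoters. The Ebf1 core was found in Cd22 alone among the 6, 48 bases before the start. This was 1 of the 8 promoters, against 13.7% of all promoters. The octamer was in 0 of the 8 promoters and in 1.74% of all promoters. The Cd22 window lay inside the span that the gene table gives for Cd22, chr7:30865402-30880342 on the minus strand, so that RefSeq and the gene table place the start of this gene differently.

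The libraries held between 13823237 and 18718915 counts. Values below are CPM, counts scaled to a common library total by the trimmed mean of M-values (TMM), unless FPKM, the deposited level per gene length, is named. Tmem173 itself lay between 14.4 and 24.5 CPM in untreated Tmem173fl/fl colons and between 14.6 and 21.3 CPM in untreated Tmem173iΔmye colons. In colitis it lay between 37.7 and 44.0 CPM and between 23.8 and 47.8 CPM, and the libraries of the genotypes overlapped (log2 fold change of -0.21 without DSS and -0.28 with it, edgeR adjusted p = 1.0 and 0.602). The summed level of 7 genes of the colon epithelium was at least 9286 CPM in every library. The 5 genes taken as markers of small intestine summed to between 22.1 and 126.0 CPM, with Defa24, a Paneth cell gene, at 0 in all libraries and Alpi, an alkaline phosphatase, at up to 124.8 CPM. Exocrine pancreas genes were present unevenly, with Pnlip at or above 321 CPM in 5 libraries. On principal component 1, with 38.95% of the variance, untreated libraries lay from -72.95 to -47.55 and colitic Tmem173fl/fl libraries from 96.74 to 119.77. Colitic Tmem173iΔmye libraries 1, 2 and 5 lay between these, at 63.55, 15.55 and -32, so this group was spread widely. Principal component 2, with 10.29% of the variance, set colitic Tmem173iΔmye library 5 apart from the rest.

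Per gene length, the order of mean levels over the 12 libraries ran from Cd79a (13.0 FPKM ± 9.74, SD, n = 12) and Cd79b (9.63 ± 6.95) through Cd22 (4.62 ± 4.17), Ms4a1 (2.54 ± 1.76), Tnfrsf13c (2.40 ± 1.78), Blk (2.33 ± 1.81), Fcer2a (1.98 ± 2.08) and Pax5 (1.71 ± 1.58) to Cr2 (1.50 ± 1.43). The spreads of neighbours in this order overlapped, but all genes were measured in the same libraries. Cd79b, for example, lay above Cd22 in every library. The order within libraries was not tested. The lowest count behind any value was 10, for Fcer2a in colitic Tmem173fl/fl library 3, and the highest was 1161, for Cd22 in colitic Tmem173fl/fl library 2. Genes that overlapped a member on the genome reached at most 0.56 CPM.

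The receptor chains are described first. Cd79a stood at 25.2, 12.6 and 11.96 CPM in untreated Tmem173fl/fl libraries 1, 2 and 3, at 12.1, 10.7 and 12.8 CPM in untreated Tmem173iΔmye libraries 1, 2 and 3, at 21.8, 39.5 and 7.69 CPM in colitic Tmem173fl/fl libraries 1, 2 and 3, and at 52.6, 3.73 and 18.6 CPM in colitic Tmem173iΔmye libraries 1, 2 and 5. Both colitic groups thus held libraries above and below every untreated one. Cd79b, its partner chain, was at 17.9, 8.66 and 11.3 CPM, at 7.83, 8.08 and 7.45 CPM, at 19.7, 27.7 and 5.99 CPM and at 36.8, 4.29 and 10.9 CPM in the same order of groups. The same libraries were high and low, and Cd79b separated the untreated genotypes, with every Tmem173iΔmye library below every Tmem173fl/fl library.

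Pax5, the factor that commits progenitors to the B lineage and keeps them there, was at 15.0, 8.73 and 12.2 CPM in untreated Tmem173fl/fl, at 7.10, 6.41 and 6.85 CPM in untreated Tmem173iΔmye, at 19.6, 34.3 and 4.29 CPM in colitic Tmem173fl/fl and at 50.5, 3.86 and 13.8 CPM in colitic Tmem173iΔmye libraries. Cd22, a lectin-like co-receptor that restrains receptor signalling, was at 26.4, 12.2 and 13.0 CPM, at 12.3, 8.32 and 8.54 CPM, at 27.1, 55.0 and 11.4 CPM and at 75.0, 9.21 and 22.8 CPM. Colitic Tmem173iΔmye library 1 was the highest for both genes, followed by colitic Tmem173fl/fl library 2. Ms4a1, which encodes CD20, was at 19.6, 12.1 and 17.5 CPM, at 10.1, 8.92 and 7.09 CPM, at 15.2, 23.2 and 3.40 CPM and at 42.6, 5.72 and 25.6 CPM. Here untreated groups did not overlap, while the colitic groups did.

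Blk, a Src-family kinase of the receptor pathway, was at 7.88, 4.47 and 6.45 CPM in untreated Tmem173fl/fl, at 2.73, 1.50 and 4.69 CPM in untreated Tmem173iΔmye, at 7.04, 12.5 and 2.25 CPM in colitic Tmem173fl/fl and at 18.3, 2.30 and 5.89 CPM in colitic Tmem173iΔmye libraries. Tnfrsf13c, the BAFF receptor, was at 7.95, 4.20 and 2.38 CPM, at 3.58, 2.04 and 2.16 CPM, at 4.82, 9.18 and 2.32 CPM and at 13.5, 1.37 and 6.13 CPM. For both genes each group overlapped every other.

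Cr2 and Fcer2a took another course in colitic Tmem173fl/fl colons. Cr2 encodes the complement receptors CD21 and CD35, carried by mature B cells and also by follicular dendritic cells. It was at 15.8, 10.9 and 15.1 CPM in untreated Tmem173fl/fl, at 8.31, 7.13 and 7.09 CPM in untreated Tmem173iΔmye, at 5.53, 7.43 and 1.43 CPM in colitic Tmem173fl/fl and at 44.1, 2.18 and 22.7 CPM in colitic Tmem173iΔmye libraries. All 3 colitic Tmem173fl/fl libraries lay below all 3 untreated Tmem173fl/fl libraries. Fcer2a encodes the low-affinity IgE receptor CD23 of resting follicular B cells and was at 10.8, 5.14 and 4.32 CPM, at 4.19, 2.75 and 3.61 CPM, at 4.28, 4.69 and 0.681 CPM and at 24.7, 1.12 and 8.01 CPM. Its colitic and untreated Tmem173fl/fl libraries overlapped, library 2 of the former lying above library 3 of the latter.

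**Figure D1:**
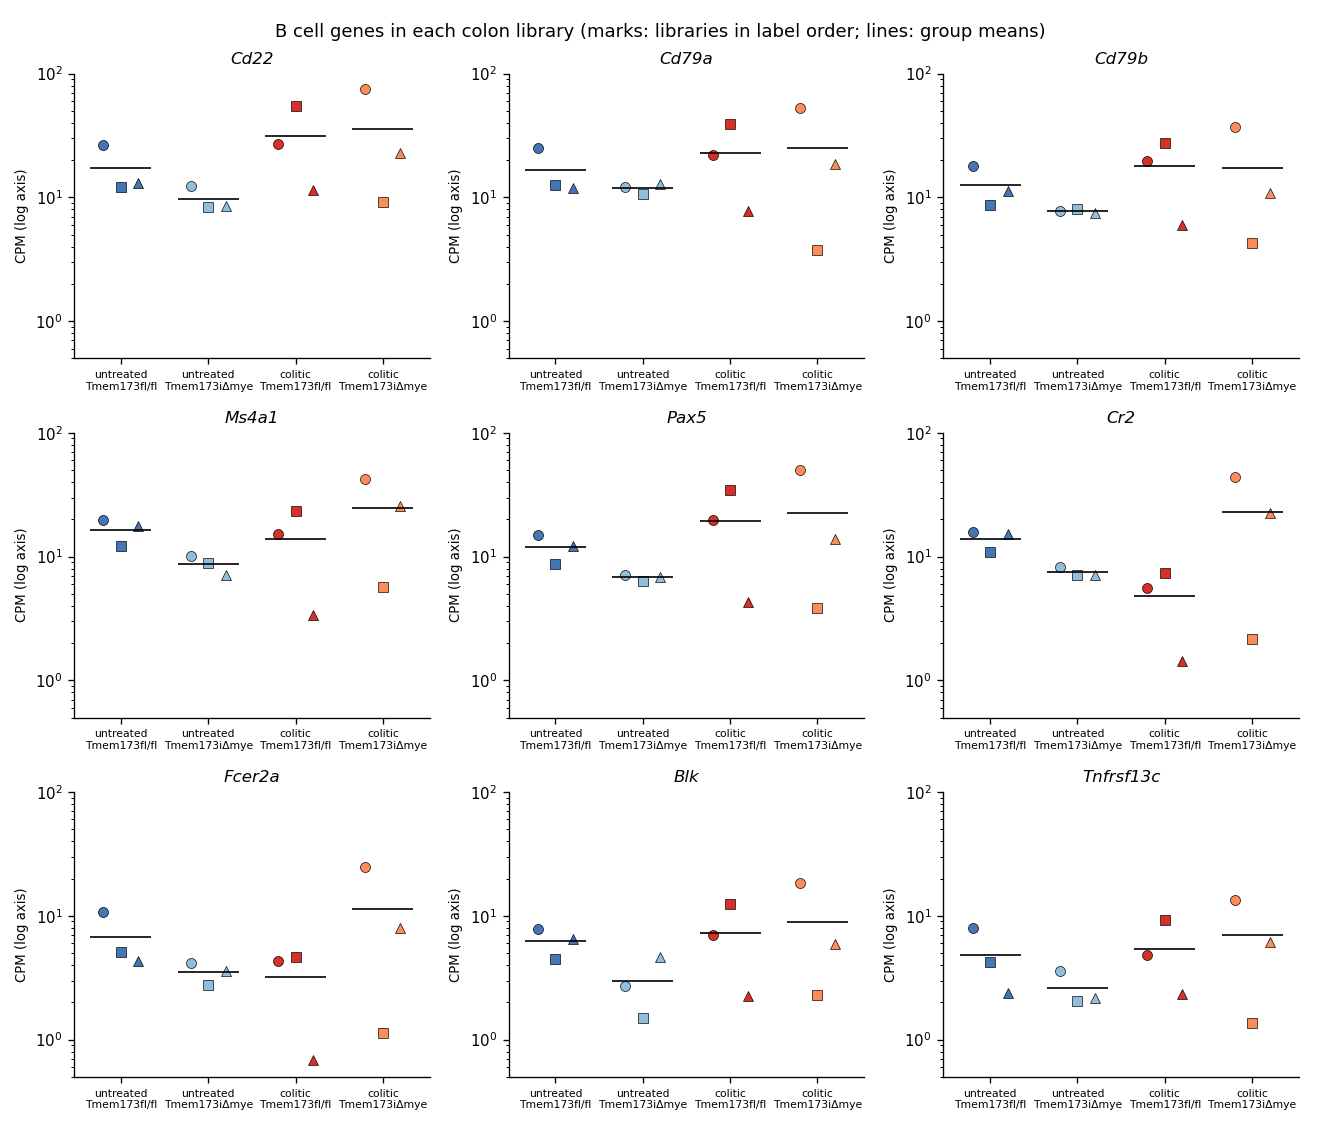
CPM (vertical log axis) of each of the 9 B cell genes in the 12 colon libraries by group, each mark a library (circle, square and triangle for the lowest, middle and highest label number) and each line the mean of 3 libraries. Colitic Tmem173iΔmye library 1 (circle) was the highest for all 9 genes, and Cr2 was lower in every colitic Tmem173fl/fl library (1.43 to 7.43 CPM) than in every untreated one of that genotype (10.9 to 15.8 CPM).

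Summed over the 9 genes, the level was 106.6 CPM ± 35.4 (SD, n = 3) in untreated Tmem173fl/fl and 61.5 ± 6.25 in untreated Tmem173iΔmye colons. In colitis it was 126.0 ± 87.0 in Tmem173fl/fl and 175.4 ± 166.1 in Tmem173iΔmye colons. The range widened from 55.9 to 146.6 CPM over the untreated libraries to 33.8 to 358.2 CPM over the colitic ones. The highest of 3 libraries of a group exceeded the lowest by a median over the 9 genes of 2.06 times in untreated Tmem173fl/fl, 1.42 times in untreated Tmem173iΔmye, 5.20 times in colitic Tmem173fl/fl and 9.84 times in colitic Tmem173iΔmye mice. For all tested genes above 3 counts in each library of the group, the same median ratio was 1.37, 1.37, 1.35 and 1.65, and its 90th percentile in the colitic groups was 2.43 and 3.30. Each of the 9 genes exceeded that percentile in both colitic groups, their lowest ratios being 3.97 and 7.45.

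The 9 genes rose and fell together from library to library. Over the 12 libraries, Pearson's r of log2(FPKM + 0.1) between pairs of them ranged from 0.569, between Cd22 and Cr2, to 0.982, between Cd79b and Pax5, with a median of 0.868 over 36 pairs. The closest partner of Cr2 was Fcer2a, at 0.951. Within the 6 untreated libraries alone the median was 0.838, and within the 6 colitic libraries alone 0.933. The points share the group differences, the libraries and their depth, so these values are descriptions.

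**Figure D2:**
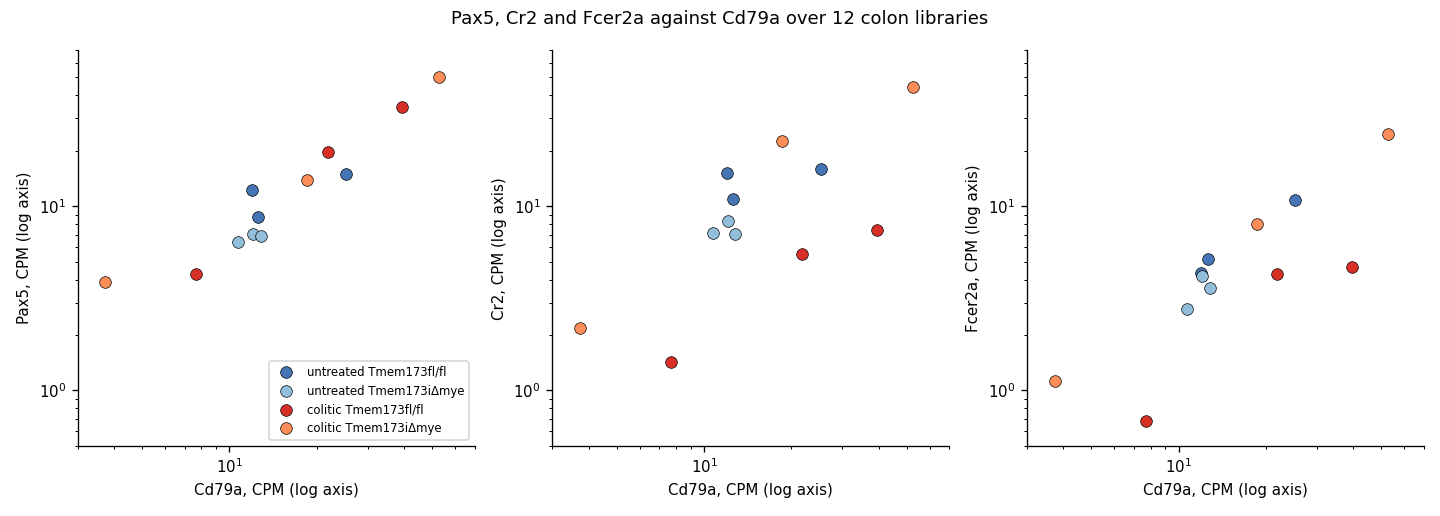
CPM of Pax5, Cr2 and Fcer2a (vertical log axes) against CPM of Cd79a (horizontal log axis), each point a library and each colour a group. Pax5 followed Cd79a in all groups, whereas the 3 colitic Tmem173fl/fl libraries lay below the others for Cr2 and Fcer2a at a given level of Cd79a.

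Among 16784 other genes with a symbol and a mean of at least 0.5 FPKM, the 10 whose log2(FPKM + 0.1) followed the mean standardised level of the 9 genes most closely included Chst3 (r = 0.987, n = 12), H2-Ob (0.982), Cxcr5 (0.975), Fcmr (0.975), Ighd (0.968), Spib (0.965), H2-DMb2 (0.960), Bank1 (0.957) and A630001G21Rik (0.939). Fcmr is the IgM Fc receptor of B cells, Cxcr5 the receptor that guides them into follicles and Ighd the heavy chain of surface IgD. Of the 10, 7 were on the lists of B cell genes and surface immunoglobulin used here, and Chst3, H2-DMb2 and A630001G21Rik were not.

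DSS in Tmem173fl/fl mice was the first comparison. Of the 9 genes, 1 was called, Cr2, which fell from 13.9 to 4.80 mean CPM (log2 fold change -1.45, SE 0.45, edgeR quasi-likelihood test with Benjamini-Hochberg adjusted p = 0.0308). Calls required an adjusted p below 0.05 together with a change of 1 or more on the log2 scale in either direction. By this rule 22.5% of the 24102 tested genes were called with DSS, and 7.61% of the tested genes were called as lower. A single call among 9 genes is near this background. Fcer2a had a negative value that did not pass (-0.97, SE 0.57, edgeR adjusted p = 0.224). The other 7 genes ran from -0.16 for Ms4a1 to 0.94 for Cd22, none of them called. At an unadjusted p under 0.05 the count was again 1 of 9, against 44.5% of all genes, and the groups did not overlap for 1 of 9, against 49.3%. The call on Cr2 was made by DESeq2 (adjusted p = 0.00299), not by limma on log2(FPKM + 0.1) (adjusted p = 0.0733). It was lost without untreated Tmem173fl/fl library 1 or 3 or colitic Tmem173fl/fl library 1 (adjusted p = 0.0842, 0.0954 and 0.0532), and without colitic Tmem173fl/fl library 3, the lowest of its group, Cd22 and Pax5 were called as higher beside it.

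DSS in Tmem173iΔmye mice gave positive log2 fold changes for all 9 genes, from 1.07 for Cd79a to 1.87 for Cd22 (SE 0.60), and none was called by edgeR, with adjusted p from 0.16 to 0.49. At an unadjusted p under 0.05 edgeR gave 5 of 9 (Cd22, Ms4a1, Pax5, Cr2 and Blk), against 15.6% of all genes, whereas 2.08% of all genes were called. DESeq2 called 1 of the 9, Ms4a1, and limma on log2(FPKM + 0.1) called 0 and gave 0 at an unadjusted p under 0.05. For each of the 9 genes, 2 of 3 colitic libraries lay above the untreated mean and library 2 lay below it. Without that library 3 genes were called as higher (Cd22, Ms4a1 and Cr2), and without library 5 there was 1 (Cd22).

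Between the genotypes without DSS, all 9 genes were at a lower mean in Tmem173iΔmye colons, by a log2 fold change from -0.47 for Cd79a to -1.06 for Blk, with a median of -0.88 against -0.00195 over all genes. In edgeR 0 of the 9 genes were called and 7 had an unadjusted p under 0.05, the others being Cd79a and Tnfrsf13c. All adjusted p were 1.0, and 0% of all genes were called while 2.99% had an unadjusted p under 0.05. DESeq2 gave 8 of 9 and limma 4 of 9 at an unadjusted p under 0.05, and neither called any. The groups did not overlap for 5 of 9 genes (Cd79b, Ms4a1, Pax5, Cr2 and Fcer2a), against 7.35% of all genes. Since the 9 genes move together over libraries, their counts do not amount to 9 separate observations. For Ms4a1 the log2 fold change was -0.91 (SE 0.23, unadjusted p = 0.00137 in the edgeR fit across all genes, higher in 3 of 3 Tmem173fl/fl libraries), and for Cr2 it was -0.88 (SE 0.21, unadjusted p = 0.00109 in the edgeR fit).

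Between the genotypes in colitis 0 of the 9 genes were called by edgeR, DESeq2 or limma, against 2.81% of all genes called by edgeR. The log2 fold change of Tmem173iΔmye over Tmem173fl/fl colons ran from -0.04 for Cd79b to 2.25 for Cr2, with SE from 0.74 to 0.97, and the groups overlapped for all 9 genes. Cr2 had the only unadjusted p under 0.05 in edgeR and in DESeq2 (edgeR adjusted p = 0.219), against 20.2% of all genes, and limma gave none. Its means were 23.0 and 4.80 CPM. Fcer2a was at 1.80 (SE 0.97, edgeR adjusted p = 0.343), with means of 11.3 and 3.22 CPM. For the other 7 genes, an interval of 2 SE on either side of the log2 fold change reached down to -1.56 for Pax5 and up to 2.34 for Ms4a1. For each of the other 6 it held a 2-fold difference in both directions, so a difference of that size was not excluded at this spread.

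The effect of DSS was compared between the genotypes by the interaction over all 12 libraries, which shares its libraries with the 4 comparisons above. None of the 9 genes was called by edgeR, DESeq2 or limma, and 2.55% of all genes were called by edgeR. Cr2 had an interaction of 3.14 in log2 units (SE 1.01, adjusted p = 0.12 in edgeR) and Fcer2a one of 2.72 (SE 1.14, edgeR adjusted p = 0.226). These were the 2 of 9 genes with an unadjusted p under 0.05 in edgeR and DESeq2, against 18.1% of all genes in edgeR, and limma gave 0. All 9 values were positive. Without colitic Tmem173iΔmye library 2 Cr2 was called (edgeR adjusted p = 0.0163).

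**Figure D3:**
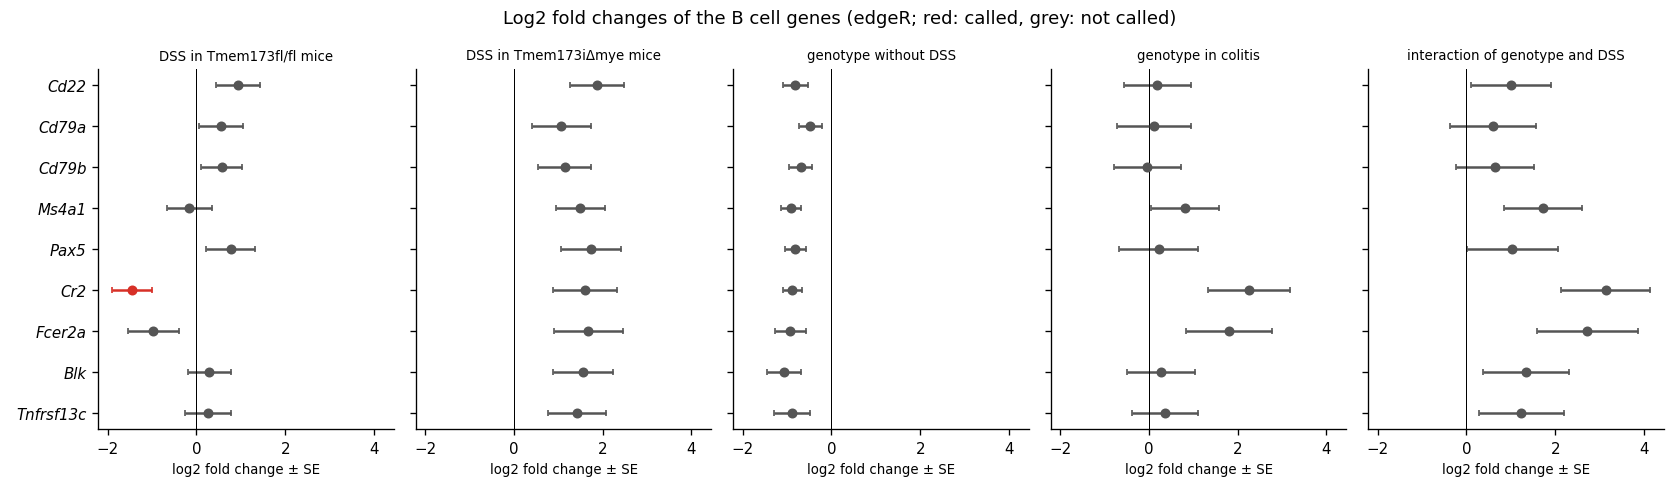
Log2 fold change of each of the 9 B cell genes (points) with its SE (bars) in the 5 comparisons, red where called and grey where not. Cr2 in the first panel (-1.45) is the single called point, all 9 points are positive for DSS in Tmem173iΔmye mice and all 9 are negative for the genotype without DSS.

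Levels relative to another B cell gene in the same library adjust for how much RNA of that gene the library holds. They do not take out differences in the kinds of cell that express either gene. The ratio of Cr2 to Cd79a was 0.628, 0.866 and 1.26 in untreated Tmem173fl/fl, 0.688, 0.665 and 0.554 in untreated Tmem173iΔmye, 0.253, 0.188 and 0.186 in colitic Tmem173fl/fl and 0.839, 0.583 and 1.22 in colitic Tmem173iΔmye libraries. The 3 colitic Tmem173fl/fl libraries lay below the other 9. The ratio of Fcer2a to Cd79a was 0.426, 0.409 and 0.361, then 0.347, 0.257 and 0.282, then 0.196, 0.119 and 0.0885, and then 0.470, 0.300 and 0.431. Again the 3 colitic Tmem173fl/fl libraries lay below the other 9, although their Cd79a itself ranged from 7.69 to 39.5 CPM.

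Among the 8 genes set against Cd79a, the ratio in colitic Tmem173fl/fl libraries did not overlap that in untreated Tmem173fl/fl libraries for 4 (Cd22, which was higher, and Ms4a1, Cr2 and Fcer2a, which were lower), against 14.4% of all other genes tested. It did not overlap that in colitic Tmem173iΔmye libraries for 3 (Ms4a1, Cr2 and Fcer2a), against 2.18% of all other genes. With Pax5 in place of Cd79a, Ms4a1, Cr2 and Fcer2a were again the 3 of 8 genes apart in both comparisons, against 12.4% and 1.98% of all other genes. The ratio of Cr2 to Pax5 lay between 1.04 and 1.25 in the 6 untreated libraries, between 0.217 and 0.333 in colitic Tmem173fl/fl and between 0.565 and 1.65 in colitic Tmem173iΔmye libraries. Blk, Tnfrsf13c and Cd79b overlapped between these groups under both denominators. The ratios were looked at after the levels of Cr2 and Fcer2a had been seen and were given no test. Cd79a itself differed up to 5.13-fold between colitic Tmem173fl/fl libraries and 14.1-fold between colitic Tmem173iΔmye libraries. Dividing by it adds this spread to genes that do not vary with it. For DSS in Tmem173fl/fl mice 49.3% of genes did not overlap by level, against 14.4% by ratio to Cd79a. The shares over all other genes are thus not a like background for B cell genes.

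**Figure D4:**
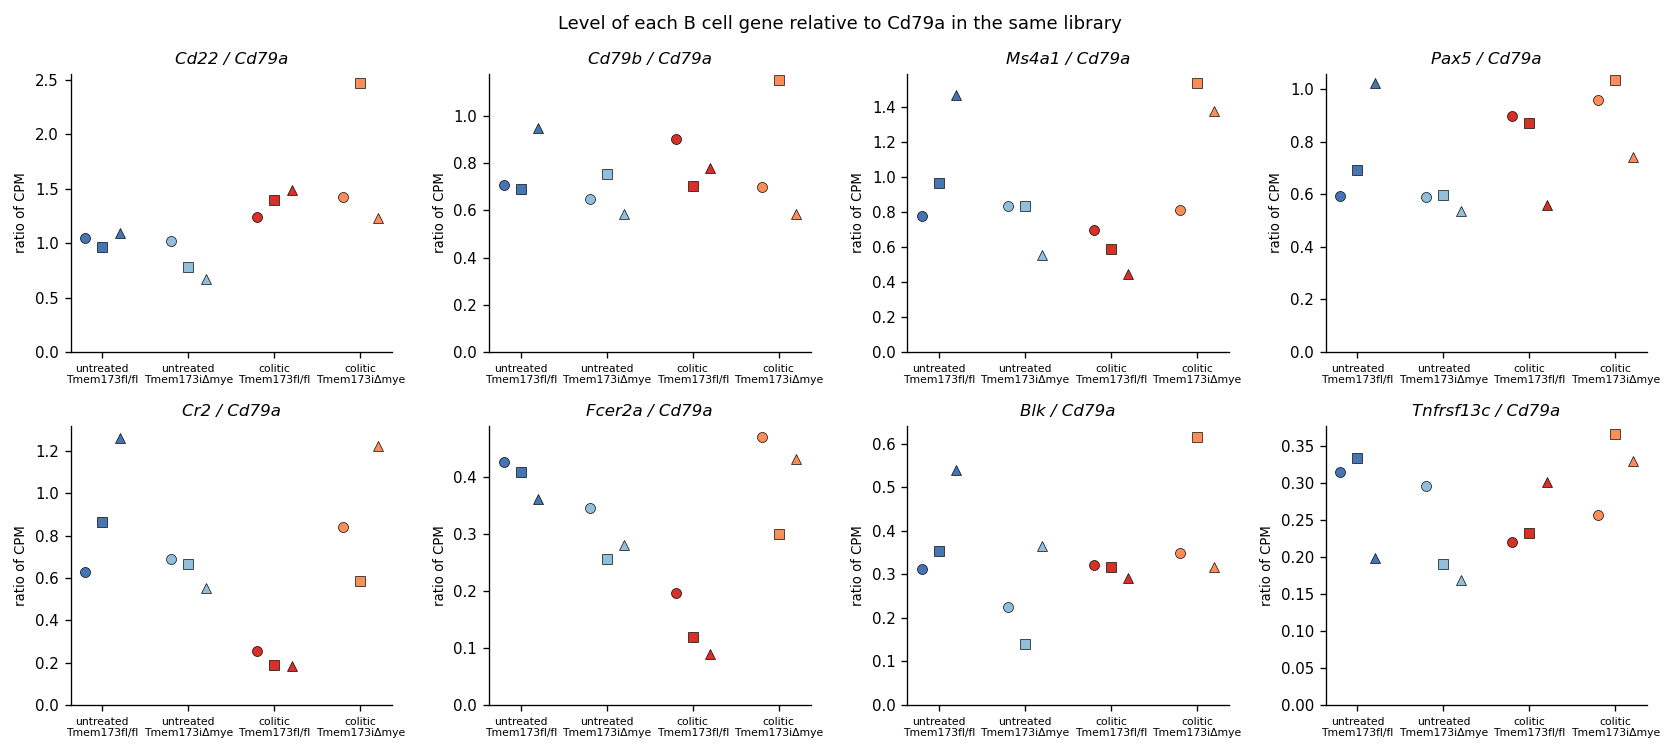
Ratio of the CPM of each of 8 B cell genes to that of Cd79a in the same library (vertical axis from 0), each mark a library (circle, square and triangle for the lowest, middle and highest label number). The 3 colitic Tmem173fl/fl libraries lie below the other 9 for Cr2 (0.186 to 0.253) and for Fcer2a (0.0885 to 0.196).

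Of 21 other mature B cell genes, 2 were called as higher with DSS in Tmem173fl/fl mice, against 22.5% of all genes in either direction. The 2 were Pou2af1, a coactivator of octamer factors (log2 fold change 1.84, edgeR adjusted p = 0.0161), and Ebf1, a B lineage factor that stromal cells also express (1.57, edgeR adjusted p = 0.00119). No gene of this list was called by edgeR, DESeq2 or limma in the other 4 comparisons. At an unadjusted p under 0.05 edgeR gave 9 of 21 for DSS in Tmem173iΔmye mice, against 15.6% of all genes. For the genotype without DSS edgeR gave 7 of 21, against 2.99% of all genes. In these 2 comparisons DESeq2 gave 10 and 7 and limma 0 and 5. The median log2 fold change of the list was 0.32 for DSS in Tmem173fl/fl mice and 0.95 for DSS in Tmem173iΔmye mice. Over all genes it was 0.03 and 0.02. Without DSS 18 of the 21 were at a negative value in Tmem173iΔmye mice, with a median of -0.39.

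Genes that carry the signal from the receptor are largely shared with other blood cells. Of 18, 3 were called as higher with DSS in Tmem173fl/fl mice, against 22.5% of all genes in either direction. The 3 were Inpp5d, a lipid phosphatase of blood cells (1.24, edgeR adjusted p = 0.00102), Vav1, a guanine nucleotide exchange factor of blood cells (1.16, edgeR adjusted p = 0.00433), and Btk, a kinase of B and myeloid cells (1.43, edgeR adjusted p = 0.0129). None of the 18 was called by edgeR in the other comparisons. For DSS in Tmem173iΔmye mice 4 of 18 had an unadjusted p under 0.05 in edgeR, against 15.6% of all genes, and DESeq2 called Btk. The median was 0.40 for DSS in Tmem173fl/fl and 0.46 for DSS in Tmem173iΔmye mice. Syk, Cd81, Ptpn6 and Bcl10, the most abundant per length, were between -0.21 and 0.13 for DSS in Tmem173fl/fl mice. Of the 4 genes of the BAFF and APRIL axis, Tnfsf13, which encodes APRIL, fell with DSS in Tmem173fl/fl mice from 5.16 to 1.83 mean CPM (-1.42, edgeR adjusted p = 0.00588). Tnfsf13 was the 1 gene of the 4 called there, against 22.5% of all genes in either direction. Tnfsf13b, which encodes BAFF, the ligand of Tnfrsf13c, was not called by edgeR in any comparison (DESeq2 called it for DSS in Tmem173iΔmye mice) and was at 0.33 for DSS in Tmem173fl/fl and 1.05 for DSS in Tmem173iΔmye mice.

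Of 7 germinal centre genes, 2 were called as higher and 1 as lower with DSS in Tmem173fl/fl mice. Over all genes 22.5% were called there in either direction. By edgeR 0 were called in the other comparisons. For DSS in Tmem173iΔmye mice 3 of 7 had an unadjusted p under 0.05 in edgeR, against 15.6% of all genes. In each of the remaining comparisons at most 1 had one. DESeq2 called Bcl6 for DSS in Tmem173iΔmye mice and S1pr2 for the genotype in colitis. S1pr2, a receptor that holds B cells in the germinal centre, rose from 8.17 to 27.6 mean CPM (1.82, edgeR adjusted p = 7.43e-05), and Bcl6, the germinal centre repressor, rose from 21.0 to 44.1 (1.14, edgeR adjusted p = 0.00077). Rgs13, a regulator of G-protein signalling that tuft and mast cells also express, fell from 3.39 to 0.764 mean CPM (-2.08, edgeR adjusted p = 0.00304).

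Of 8 plasma cell genes, 3 were called as higher with DSS in Tmem173fl/fl mice, against 22.5% of all genes in either direction. Mzb1 and Derl3, both of the secretory pathway, had log2 fold changes of 1.67 and 2.12 (edgeR adjusted p = 0.0246 and 0.0108) and were called by DESeq2 and not by limma. Sdc1, which marks plasma cells and is also made by epithelium, rose by 1.13 (edgeR adjusted p = 0.000217). Between the colitic genotypes Sdc1 was lower in Tmem173iΔmye colons, at 186.2 CPM ± 34.3 against 455.0 ± 40.4 (SD, n = 3), (log2 fold change -1.30, edgeR adjusted p = 0.0215). Sdc1 was the 1 gene of 8 called there by edgeR, against 2.81% of all genes, and DESeq2 called it while limma did not. All 8 had negative values in that comparison, with a median of -0.68, while the 9 B cell genes had a median of 0.28 there. Jchain, the joining chain of secreted IgA and IgM, was at 0.29 for DSS in Tmem173fl/fl mice and -0.53 for the genotype in colitis and was not called.

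The 4 immunoglobulin constant genes, Igkc, Igha, Ighm and Ighd, were not called in any comparison by edgeR, DESeq2 or limma. In edgeR 3 of them had an unadjusted p under 0.05 for the genotype without DSS, against 2.99% of all genes. All 4 values were negative there. For DSS in Tmem173fl/fl mice 2 of them had one, against 44.5% of all genes. Their summed level was between 2403 and 4397 CPM in untreated libraries, 6083, 10907 and 3265 CPM in colitic Tmem173fl/fl libraries 1, 2 and 3 and 8377, 1464 and 978 CPM in colitic Tmem173iΔmye libraries 1, 2 and 5. Library 5 had the lowest immunoglobulin sum of all, with Igha at 411 CPM, while its 9 B cell genes summed to 134.3 CPM and its Ighd stood at 42.8 CPM, above every untreated library. It is the library that principal component 2 set apart.

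Genes that organise follicles and bring lymphocytes into tissue formed the next list. Of 13 found, 5 were called as higher with DSS in Tmem173fl/fl mice, beside 22.5% of all tested genes called in either direction, and the median of the list was 1.23. Cxcl13, the chemokine that draws Cxcr5-bearing B cells into follicles, was at 13.0, 10.1 and 16.2 CPM in untreated and 292.9, 386.6 and 170.4 CPM in colitic Tmem173fl/fl libraries (4.50, edgeR adjusted p = 7.13e-06). In Tmem173iΔmye mice it was at 9.95, 17.4 and 9.62 CPM untreated and at 131.1, 77.5 and 44.6 CPM in colitis (2.77, edgeR adjusted p = 0.0083), and it was the 1 gene of the list called there by edgeR, beside 6 by DESeq2. All colitic libraries lay above all untreated ones in both genotypes, and the genotypes in colitis stood at -1.75 (edgeR adjusted p = 0.066), a difference that DESeq2 called.

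Also called as higher with DSS in Tmem173fl/fl mice were Madcam1, the gut vessel ligand of lymphocytes (2.78), Ccr7, the receptor for lymphoid chemokines (2.72), and Tnfsf11, which encodes RANKL (3.61, edgeR adjusted p from 4.03e-05 for Madcam1 to 0.000453 for Ccr7). Between the genotypes in colitis Tnfsf11 was lower with the deletion, at 3.14 CPM ± 1.64 against 17.3 ± 5.57 (-2.47, edgeR adjusted p = 0.0329). DESeq2 made this call and limma did not. Ccl21a and Ccl19 each have 2 rows in the gene table, and the division of reads between copies makes their levels uncertain.

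T cell genes were measured beside these as the other lymphocytes of the tissue. None of the 9 T cell genes was called in any comparison, by edgeR, DESeq2 or limma. In each of these tools 2 of them had an unadjusted p under 0.05 for DSS in Tmem173fl/fl mice and 0 elsewhere. Over all genes edgeR gave 44.5% for DSS in Tmem173fl/fl mice. The summed level of the list ranged from 33.1 CPM in colitic Tmem173iΔmye library 5 to 164.4 CPM in library 1 of that group. Of 7 myeloid genes, edgeR called 6 as higher with DSS in Tmem173fl/fl and 4 in Tmem173iΔmye mice. It called 3 as lower in Tmem173iΔmye mice when the colitic genotypes were compared. Over all genes 22.5%, 2.08% and 2.81% were called in these 3 comparisons, in either direction. Itgam, which encodes CD11b, averaged 37.9 CPM ± 2.45 (SD, n = 3) in Tmem173fl/fl and 18.7 ± 4.11 in Tmem173iΔmye colons with colitis (-1.03, edgeR adjusted p = 0.0438), with no overlap between its libraries, a call that neither DESeq2 nor limma made. For that comparison DESeq2 called S100a8 and S100a9 of the myeloid genes and limma called 0, with 3 at an unadjusted p under 0.05 in each tool, and for DSS in Tmem173iΔmye mice DESeq2 called 6 and limma 0, with 6 at an unadjusted p under 0.05 in limma.

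Some markers of lymph node and of pancreas were high in the libraries in which B cell genes were high, and others were not. Glycam1, a gene of the high endothelial vessels of lymph nodes, was at 8.41 CPM (118 counts) in colitic Tmem173iΔmye library 1 and 3.55 CPM (75 counts) in colitic Tmem173fl/fl library 2, and at or below 1.27 CPM in the other 10. Ccl19, a chemokine of the T cell zone, had 95 and 33 counts in these same libraries and 0 in the others. They were the highest and the next highest library for the 9 B cell genes, at 358.2 and 213.5 summed CPM. Of the other 2 genes taken as markers of these vessels, Chst4 was at 73.1 CPM in the former and at 22.3 CPM in the latter, its lowest value of all libraries, and Madcam1 was at 22.1 and 23.8 CPM, beside 23.8 CPM in colitic Tmem173fl/fl library 1. The 3 vessel genes summed to between 59.8 and 85.0 CPM in untreated Tmem173fl/fl, 76.6 and 82.9 CPM in untreated Tmem173iΔmye, 49.2 and 55.4 CPM in colitic Tmem173fl/fl and 61.7 and 103.6 CPM in colitic Tmem173iΔmye libraries. Pnlip, the pancreatic lipase, was at 1395 and 463 CPM in them, but also at 705 CPM in colitic Tmem173fl/fl library 1 and 617 CPM in untreated Tmem173fl/fl library 3. The part of these tissues in the B cell values was not tested. With both libraries left out, a choice made after the data had been seen, 0 of the 9 genes were called for the genotype in colitis and for the interaction, Cr2 being at 1.82 and 2.65 (edgeR adjusted p = 0.41 and 0.147).

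**Figure D5:**
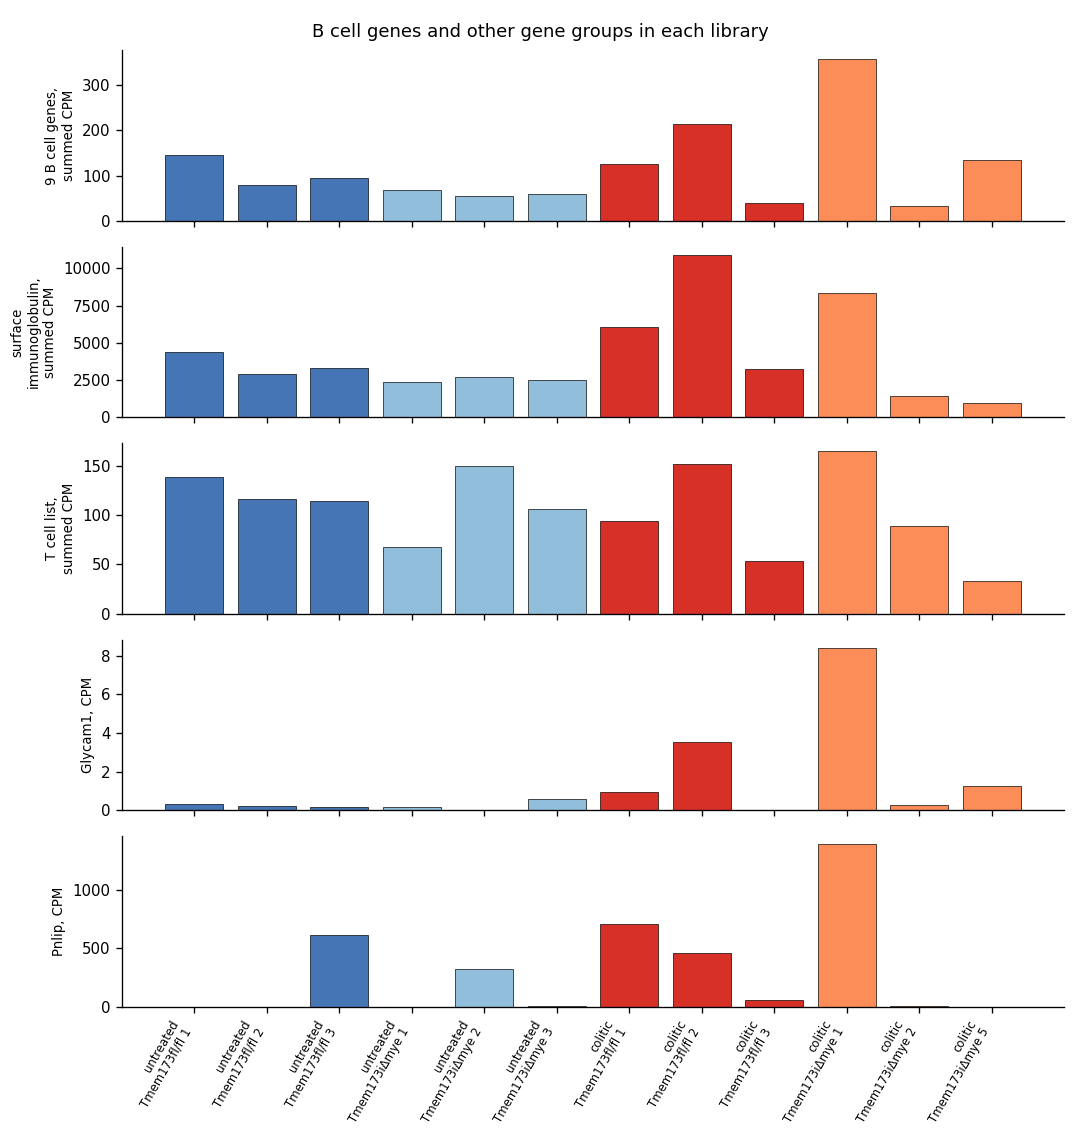
Summed CPM of the 9 B cell genes, of 4 immunoglobulin genes and of 9 T cell genes, and CPM of Glycam1 and of Pnlip, as bars from 0 for each of the 12 libraries, coloured by group. Colitic Tmem173iΔmye library 1 holds the highest bars for the B cell genes (358.2 CPM), Glycam1 (8.41 CPM) and Pnlip (1395 CPM), and library 5 of that group has the lowest immunoglobulin bar (978 CPM).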

How the data were processed

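RNA was extracted with TRIzol, purified with lithium chloride, and polyA libraries were made with a NEBNext Ultra kit. The submitters' processing notes name CASAVA 1.8, fastp, HISAT2 2.0.5, featureCounts 1.5.0-p3 and DESeq2 1.20.0 with GRCm38/mm10. The use of strand is not given in the sources used here. The authors deposited whole-number counts per gene and library. The deposited FPKM values equal counts divided by gene length, library total and 1 constant per library. Columns of the authors' group means, log2 fold changes, p-values and adjusted p-values were not used. Groups and replicate numbers came from sample titles, and nothing in the labels names the animals, so that p-values measure the spread between libraries.

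Counts were tested with edgeR 4.0.16 (glmQLFit and glmQLFTest, TMM scaling, R 4.3.3) on 24102 of 54532 genes with at least 0.1 FPKM in at least 3 libraries, with the groups compared in each fit, or all 12 libraries for the interaction. The SE was the log2 fold change divided by the square root of F. A call required a change of 1 or more on the log2 scale, in either direction, together with a Benjamini-Hochberg adjusted p below 0.05. The fits were tested on simulated counts. Alternatives were RLE scaling, DESeq2 1.42.0, limma 3.58.1 on log2(FPKM + 0.1) and log2(FPKM + 1), no filter, filterByExpr, 1 fit of all libraries, a replicate block, adjusted p alone, the study's rule (unadjusted p with the fold change) and leaving out each library. Library totals were 13823237 to 18718915 counts, and no value of the 9 genes rested on fewer than 10 counts.

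All 9 B cell genes were named in every comparison. From the lists, called genes and up to 4 of the most abundant others could be named, and the 10 genes most alike were named by r. The genes and lists were chosen with earlier results of these data known. Of the listed genes, 2 (Faim3 and Fdcsp) had no row under that symbol. Some genes of the lists are not reported here.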

Additional observations from a re-analysis of the deposited data

Results flagged for a closer look

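Sdc1, on the plasma cell list, differed between the genotypes in its response to DSS by the interaction term, at -1.38 on the log2 scale (edgeR adjusted p = 0.0096). In Tmem173fl/fl mice DSS raised it by 1.13 and it had a value of -0.32 in Tmem173iΔmye mice, where it was not called. Itgam, on the myeloid list, had an interaction of -1.31 (edgeR adjusted p = 0.0384), having risen by 2.89 in Tmem173fl/fl and by 1.52 in Tmem173iΔmye mice. The interaction of Sdc1 was called by DESeq2 and by limma, and that of Itgam by DESeq2 and not by limma. None of the 9 B cell genes had an interaction that was called. Groups of 3 libraries were not examined for single values far from the others.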

How the results depend on the processing

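Direction and side of the threshold were examined for the count of called genes in each comparison and for 45 log2 fold changes (9 genes in 5 comparisons) under each alternative. Of the 693 values recomputed for these fold changes, 634 kept both, 40 changed the sign, 13 gained and 6 lost a call. For DSS in Tmem173fl/fl mice the count of 1 became 0 with limma at either pseudocount and with 1 fit of all libraries, and ranged from 0 to 3 when single libraries were left out. For DSS in Tmem173iΔmye mice the count of 0 became 1 with DESeq2, 3 without the filter and 5 under the study's rule, and ranged from 0 to 3 when single libraries were left out. Under the study's rule the count was 1 for the genotype without DSS, 1 for the genotype in colitis and 2 for the interaction. For the interaction it was 1 without the filter and ranged from 0 to 1 with single libraries left out. The cause was not tested.

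Samples of the same number did not deviate together (r from -0.19 to 0.21), so the numbers were not taken to pair them. With the replicate block the count was 1 for DSS in Tmem173fl/fl mice and 1 for DSS in Tmem173iΔmye mice (Blk), 0 in the other comparisons, and 6 genes turned negative for the genotype in colitis: Cd22 -0.54, Cd79a -0.997, Ms4a1 -0.24, Pax5 -0.83, Blk -0.47 and Tnfrsf13c -0.53. In the same comparison limma gave Cd22 -0.0663, Cd79a -0.31 and Pax5 -0.0528 at a pseudocount of 0.1, and Cd22 -0.0273 and Cd79a -0.24 at 1. Without the libraries with Ccl19 counts, an alternative chosen after seeing the data, Cd22 was at -0.27, Cd79a at -0.41, Pax5 at -0.44 and Blk at -0.19, and for the interaction Cd79b was at -0.14.

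When single libraries were left out, the sign of 16 values changed. For DSS in Tmem173fl/fl mice Cd79a ranged from -0.11 to 0.98, Ms4a1 from -0.76 to 0.28, Blk from -0.37 to 0.70 and Tnfrsf13c from -0.37 to 0.81. For DSS in Tmem173iΔmye mice Cd79a ranged from -0.0903 to 1.60 and Cd79b from -0.0391 to 1.63. For the genotype in colitis Cd22 ranged from -0.98 to 0.89, Cd79a from -1.06 to 0.76, Cd79b from -1.25 to 0.43, Pax5 from -1.15 to 0.93, Blk from -0.85 to 0.92 and Tnfrsf13c from -0.55 to 0.97. For the interaction Cd22 ranged from -0.14 to 1.65, Cd79a from -0.57 to 1.17, Cd79b from -0.54 to 1.11 and Pax5 from -0.32 to 1.68. Depth limits the lowest values, as Fcer2a had 10 counts in colitic Tmem173fl/fl library 3.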
